A study of Vitis vinifera with 72 samples.

Results

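A set of 100 grapevine genes was examined whose mRNA was lower in the 2012 season than in the 2011 season before veraison, in both cultivars and in all 3 growing areas studied. The genes were chosen by their measured values. At the pre-veraison stage (PV), the group means of log2(FPKM + 1) were compared between the seasons in each of the 6 pairs of cultivar and area, and each gene was scored by the smallest of its 6 falls from 2011 to 2012. The members were the 100 highest scores among the 13463 genes with a mean of at least 5 FPKM over the 18 PV libraries of 2011, out of 29971 gene IDs in the deposited table. FPKM counts the fragments mapped to a gene, scaled to transcript length and to the mapped fragments of the library. Of the 13463 genes, 960 (7.13%) were lower in 2012 in all 6 pairs, and the members were the part of these with the largest consistent falls.

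Grape berries develop in distinct phases of growth. Before veraison the berry is hard and green, accumulates organic acids and tannins, and its cells divide and expand; at veraison it softens, begins to take up sugar and, in red cultivars, to colour. Transcript levels of many genes in the pericarp, the skin and flesh around the seeds, are known to change sharply across this transition.

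The libraries were made from total RNA of berry pericarp of Vitis vinifera cultivars Cabernet Sauvignon (CS) and Sangiovese (SG), both red and used for wine. Vines grew in the field at Bolgheri, on the coast of Tuscany, at Montalcino, inland in Tuscany, or at Riccione, on the Adriatic coast, in the seasons 2011 and 2012. Berries were taken at PV, BBCH code 79, when most berries touched, and at mid-ripening (MR), BBCH code 83; BBCH is a scale of plant growth stages. Every combination of cultivar, area, season and stage was a group with 3 biological replicates, which gave 24 groups and 72 libraries, 36 at each stage. The labels name no treatment. Each season is a single year, and season and any sequencing batch, which the labels do not give, cannot be told apart. The labels do not tell whether replicates came from separate vines, and p-values measure only the spread between these samples. In whole pericarp, fewer cells of a type and less RNA per cell cannot be told apart.

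Total FPKM per library ranged from 813505 to 1014766, and 15450 to 17972 genes reached 1 FPKM. Absolute depth is unknown. Relative depth, estimated from the smallest steps of 2785 genes with low values, ranged from 0.523 to 2.24 times the median library, and both extremes lay in the CS group from Bolgheri at PV in 2012. Median relative depth was 1.00 in the PV libraries of 2011 and 0.990 in those of 2012. Replicates of a group correlated at 0.969 or more over the genes tested, and no library was listed a second time. None of the 29971 IDs matched the gene table at hand, so genes are given by ID alone, without name, role or position, and no tissue marker could be looked up. In an ID such as VIT_18s0001g10610 the leading digits are a chromosome field, followed by a scaffold and a gene number.

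The choice of members fixed a fall in every pair, and its size is therefore a description. Averaged over the 6 pairs, the members fell by 0.43 to 4.09 on the log2(FPKM + 1) scale, with a median of 0.97; the median difference of all 13463 genes over the minimum was -0.025. In linear FPKM the median ratio of the 2011 mean to the 2012 mean was 2.11, with a range from 1.37 to 9.41, and 54 members reached a ratio of at least 2. The median fall by pair was 0.63 in CS from Bolgheri, 0.92 in CS from Montalcino and 0.95 in CS from Riccione. In SG it was 1.11 at Bolgheri, 0.65 at Montalcino and 0.98 at Riccione. The pair with the largest fall was SG from Bolgheri for 34 members, whereas the smallest fall, which set the score, came from CS from Bolgheri for 33 members and from SG from Montalcino for 32. The score ran from 1.11 to 0.304. The last member inside the limit was VIT_18s0001g01730 at 0.304, after VIT_13s0156g00430 at 0.306 and VIT_17s0000g08080 at 0.306, and the next genes, outside it, were VIT_06s0004g06570 at 0.303 and, 2 ranks on, VIT_08s0032g00190 at 0.299.

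The mean over the 100 members of log2(FPKM + 1) in each PV library ranged from 3.61 to 4.50 in 2011 (median 3.95, n = 18) and from 2.62 to 3.42 in 2012 (median 2.96, n = 18). No library of one season entered the range of the other. Within 2011 the level was highest in SG from Bolgheri, at 4.46 ± 0.057 (SD, n = 3), and lowest in CS from Montalcino, at 3.77 ± 0.24 (SD, n = 3). Replicates were unequal in that last group: leaving out its replicate 3, the highest of the 3 for the members' mean, kept 80 of the 100 members, the fewest for any PV library left out.

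**Figure D1:**
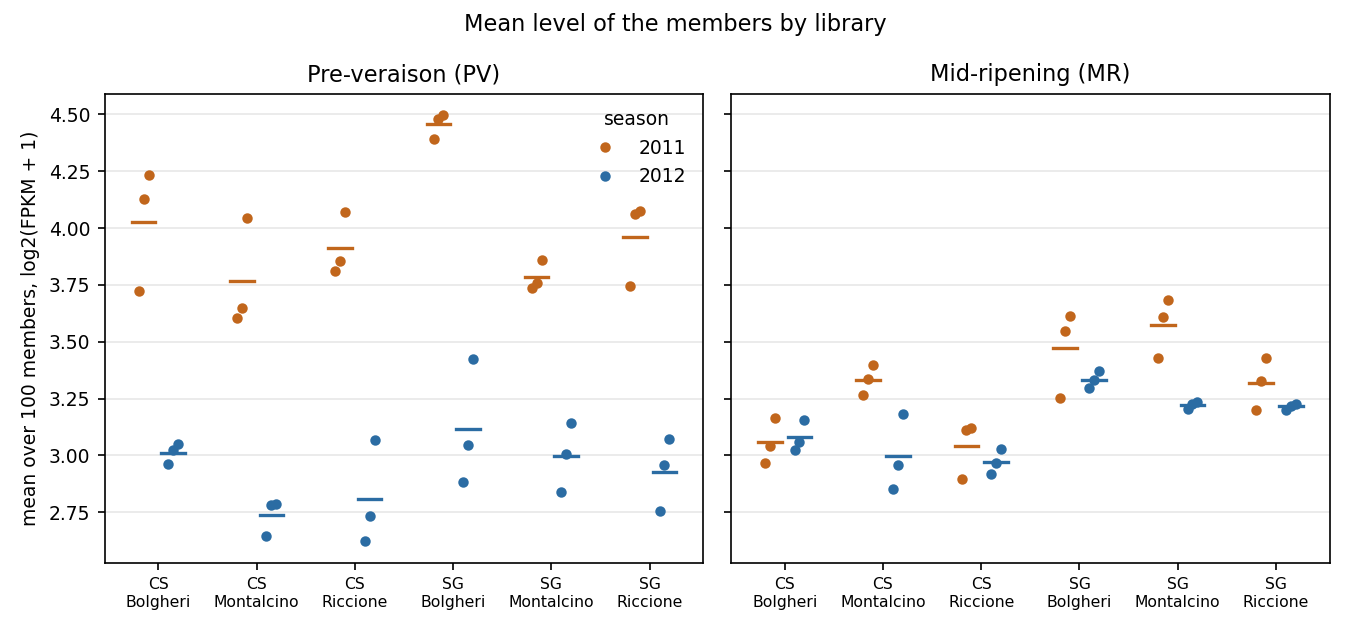
Mean of log2(FPKM + 1) over the 100 members in each library (points) and mean of the 3 libraries of a group (lines), for CS and SG in 3 areas, at PV (left) and MR (right). All 18 PV libraries of 2011 lie at 3.61 or above and all 18 of 2012 at 3.42 or below. The choice of members fixed a fall within each pair and so favoured this gap, which is a description. At MR the seasons overlap between 2.89 and 3.37.

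The members spanned a wide range of abundance. Their mean over the PV libraries of 2011 ran from 5.00 to 2090 FPKM with a median of 13.3; 36 members lay between 5 and 10 FPKM, 52 between 10 and 50, and 12 at 50 or above. The abundant end was held by VIT_10s0116g01780, with 671 to 3471 FPKM in the 18 libraries of 2011 (median 2123) and 446 to 2259 in those of 2012 (median 1133). Its ranges over all 18 libraries overlapped between seasons, but its libraries did not overlap within any of the 6 pairs. Among members with no listed 0 at PV the highest score belonged to VIT_01s0146g00260. In 2011 its 3 libraries held 126, 205 and 97.0 FPKM in SG from Bolgheri, 18.6, 54.6 and 17.5 in SG from Riccione, and 1.62, 5.24 and 72.8 in CS from Montalcino. In 2012 the same groups held 1.37, 6.01 and 16.5 FPKM, then 6.06, 14.2 and 9.54, then 9.81, 6.24 and 0.877. Over all 18 libraries its mean was 49.8 ± 53.4 FPKM (SD) in 2011 and 5.36 ± 4.62 in 2012, and the ranges overlapped, with replicates far apart in CS from Montalcino in 2011. The next score belonged to VIT_18s0001g10610, a gene of lower level and smaller spread, with 2.54 to 17.4 FPKM in 2011 (median 5.37) and 0.785 to 4.69 in 2012 (median 2.00). Its ranges over all libraries overlapped too, but within each of the 6 pairs the seasons did not.

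In 41 of the 100 members no library of 2012 reached any library of 2011 within each of the 6 pairs, and in another 26 this held in 5 pairs; over the 13463 genes the shares were 0.735% and 3.97%. All 18 libraries of 2012 lay below all 18 of 2011 in 4 members, against 5 of the 13463 genes over the minimum (0.0371%); the same contrast chose the members, so nothing is read from these counts. These 4, named here after their values were seen, were VIT_01s0137g00170 (6.71 to 13.4 FPKM in 2011 and 2.16 to 5.77 in 2012), VIT_07s0031g02740 (7.18 to 18.0 and 0.676 to 6.66), VIT_08s0040g00820 (3.68 to 8.60 and 0.483 to 2.60) and VIT_00s0304g00010 (24.5 to 39.4 and 11.2 to 23.9).

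Exact zeros set some scores. The rank 1 gene, VIT_18s0001g01750, was listed at 0 in 32 of the 72 libraries and switched between 0 and at least 10 FPKM within 13 of the 24 groups. At PV in 2011 its values were 0, 0 and 311 FPKM in CS from Montalcino, and 366, 417 and 91.4 in SG from Bolgheri. In 2012 they were 0, 30.3 and 0, and 0, 0 and 166. VIT_05s0094g00570, at rank 48, was listed at 0 in 46 libraries and switched within 14 groups. No other member switched in this way, though 16 members held at least one 0 somewhere. Both genes were singled out after their values were seen, and without counts a listed 0 may be a failed estimate, so their falls are less certain than those of other members.

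At MR, in libraries that the choice of members did not use, the season difference was mixed in sign. The members' median difference, 2012 minus 2011, was -0.14 on the log2 scale, against 0.0029 over the 20443 genes tested; tested genes had a mean of at least 1 FPKM in at least 1 group, as all 100 members did. With limma and Benjamini-Hochberg adjustment over these genes, at a threshold of 0.05, 38 members were called lower in 2012, 9 were called higher and 53 were not called. Over all genes tested 19.6% were called lower and 21.9% higher, and over the genes that met the rule's minimum 22.8% and 25%. The members thus held more lower calls and fewer higher calls than the background. Called falls were small: they ran from 0.19 to 1.19 with a median of 0.42, and 1 member fell by at least 1, as did 0.611% of all genes tested, whereas 0 members and 0.455% of genes were called higher by as much. The size at PV was raised by the choice of members, and the sizes at the 2 stages are therefore not compared. With the group mean taken as the unit, so that the 6 pairs carry the error, limma called 0 members either way; 20 were lower and 3 higher at an unadjusted p under 0.05, against 5.46% and 6.42% of all genes.

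**Figure D2:**
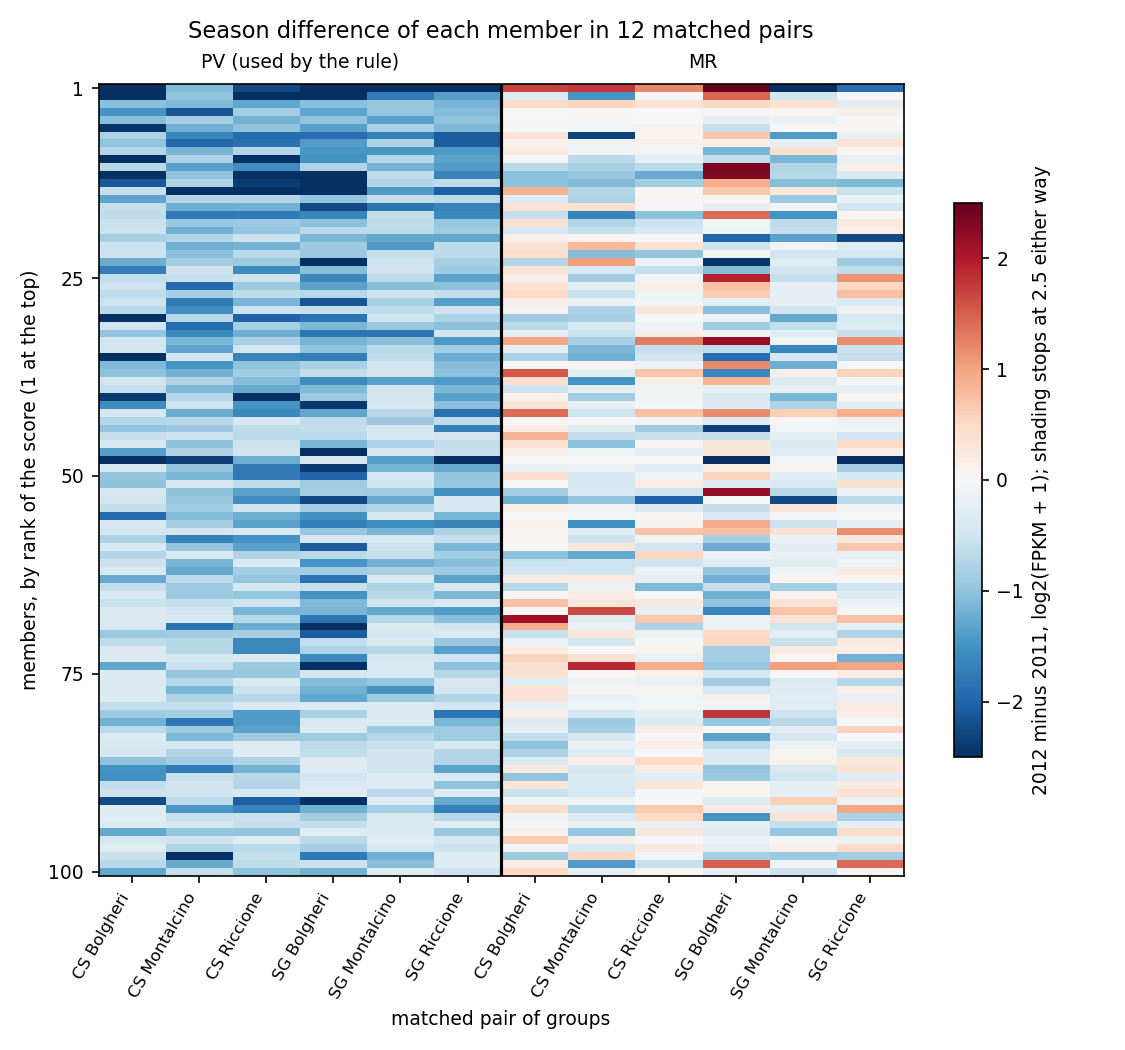
Difference between seasons, 2012 minus 2011 on the log2(FPKM + 1) scale, for each of the 100 members (rows, by rank) in the 6 pairs of groups at PV (left) and at MR (right); blue is lower in 2012 and red higher. Every cell is blue at PV, as the choice required. At MR colours are mixed, and the differences spread most over the members in SG from Bolgheri.

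By pair, the MR median of the members was 0.051 in CS from Bolgheri, -0.33 in CS from Montalcino, -0.032 in CS from Riccione, -0.24 in SG from Bolgheri, -0.28 in SG from Montalcino and -0.10 in SG from Riccione. Medians over all tested genes lay between -0.034 and 0.045 in the 6 pairs. At Montalcino 78 members in CS and 77 in SG were lower in 2012, against 54.8% and 56.6% of all genes tested. In CS from Bolgheri 41 were, against 41.1% of all genes. The other pairs had 55 in CS and 56 in SG from Riccione and 64 in SG from Bolgheri, against 45.5%, 44.5% and 50.5%. Members spread most in SG from Bolgheri, with an SD over members of 1.07 against 0.48 to 0.70 in the other pairs; there 15 members were at least 2-fold lower and 12 at least 2-fold higher, against 3.52% and 2.19% of all genes tested. Leaving that pair out, an alternative chosen after seeing the data, gave 38 lower and 10 higher calls, against 19.3% and 21.5% of genes, and 33 and 6 of these were also called with it. Over all pairs, 11 members were lower in 2012 in each of the 6 and 0 were higher in each; among all tested genes these shares were 3.29% and 4.46%.

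Among members higher in 2012 at MR, VIT_14s0060g00310 had the largest difference. It held 6.98 to 44.7 FPKM at MR in 2011 (median 18.0, n = 18) and 13.9 to 108 in 2012 (median 25.1, n = 18), a difference of 0.78 (SE 0.092, limma adjusted p = 6.9e-10). The groups overlapped, and only 4 of 6 pairs were higher: SG from Bolgheri went from 7.43, 8.26 and 6.98 FPKM to 50.5, 43.6 and 24.2, while CS from Montalcino went from 32.5, 33.8 and 36.8 to 18.6, 18.0 and 21.4. Without SG from Bolgheri the difference was 0.51. VIT_14s0006g00250 rose in 5 of 6 pairs, from 10.1 ± 2.66 FPKM (SD, n = 18) to 17.3 ± 4.71, a difference of 0.72 (SE 0.072, limma adjusted p = 1.1e-11). At PV it held 2.59 to 9.49 FPKM in 2011 and 0.544 to 5.17 in 2012. The choice of members fixed that fall, so nothing is read from the opposite signs at the 2 stages. On the lower side VIT_00s0253g00080 had 0.454 to 76.3 FPKM in 2011 (median 11.7) and 0.111 to 24.7 in 2012 (median 2.57), lower in 6 of 6 pairs by a mean of 1.19 (SE 0.38, limma adjusted p = 0.0093). The pair differences ran from -2.26 to -0.0048, and SG from Bolgheri, at -0.0048, was almost unchanged. Its replicates were far apart, at 0.111, 0.748 and 24.7 FPKM in CS from Montalcino in 2012, and the seasons overlapped. VIT_14s0060g00990 fell by 0.90 (SE 0.069, limma adjusted p = 2.6e-15), in 4 of 6 pairs, and with a pseudocount of 5 by 0.49. This gene was near 0 in CS at MR in both seasons, between 0.111 and 0.622 FPKM in all 18 libraries. In SG its libraries held 11.7, 11.8 and 11.9 FPKM at Bolgheri in 2011 and 1.48, 2.82 and 2.55 in 2012, with no overlap between seasons there or in the other 2 areas.

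**Figure D3:**
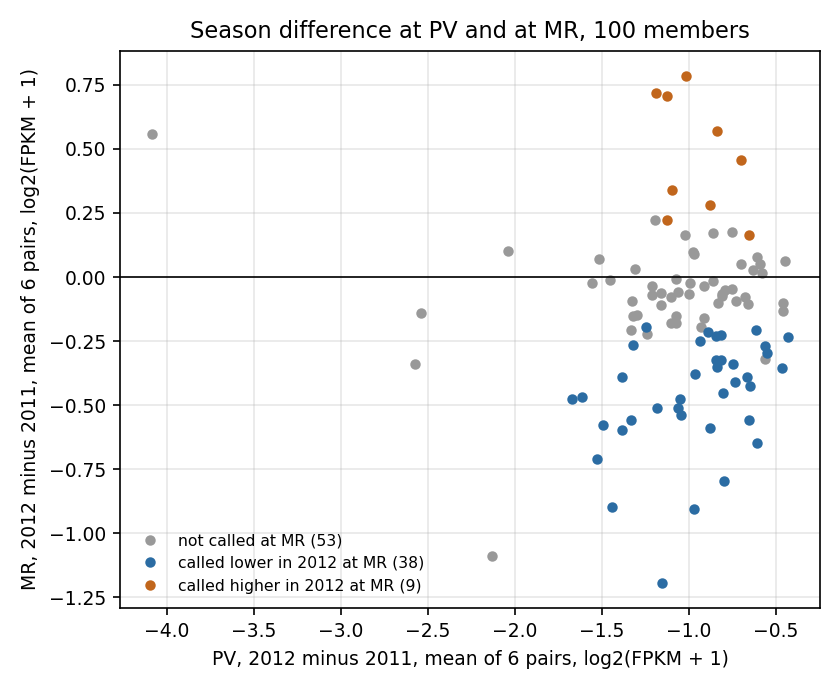
Season difference of each member at PV (horizontal axis, used by the rule) and at MR (vertical axis), each the mean of 6 pairs of 2012 minus 2011 on the log2(FPKM + 1) scale, coloured by the limma call at MR. Points lie between -1.19 and 0.78 at MR; at PV every point is at -0.43 or below, as the choice required.

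Whether the season difference at MR depended on cultivar was tested as an interaction. In limma 31 members were called, against 29.4% of all genes tested, and these were 17 with a more negative difference in SG and 14 with a less negative or more positive one, against 16.5% and 12.9%. These shares are near the background of all genes tested. Of the 13463 genes over the rule's minimum, 4705 were called for this interaction. The difference between areas in the season effect was called in 63 members. Called were also 52% of all genes tested and 8310 of the 13463 genes over the rule's minimum. The members' count was near that second share. Among these 63, the season difference was lowest in Montalcino in 39, in Bolgheri in 20 and in Riccione in 4; of all genes called, 47.5%, 30.7% and 21.9% were lowest there. The members' median season difference at MR was -0.34 in Montalcino, -0.13 in Bolgheri and -0.076 in Riccione, beside -0.035, 0.024 and 0.013 over all genes tested. With the group mean as the unit limma called 0 members for either interaction, with 6 and 21 at an unadjusted p under 0.05, against 3.99% and 7.79% of all genes.

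Members differed widely in what they did between the stages. The PV libraries, which are 1 side of this comparison, also chose the members, through the score and through the minimum. That minimum favours genes high at PV, so the stage counts are a description. From PV to MR 52 members fell and 32 rose in limma at an adjusted p under 0.05, and 16 were not called. Among all tested genes 58.1% fell and 33.4% rose, so the members' split was close to the background. The median difference was -0.18, against -0.23 over all tested genes, and relative to that shift the members were centred near 0. After quantile normalization 45 fell and 51 rose, against 42.2% and 49.8% of genes. After median-of-ratios scaling 46 fell and 44 rose, against 49.1% and 42.8%, so the split moved with the scaling in the members and in all genes. At least 2-fold changes were seen in 39 members that fell and 19 that rose, against 19.6% and 6.57% of all genes tested. Those genes include some below the rule's minimum, and at low levels this scale understates a change, so nothing is read from these shares. The members' whole range ran from -4.81 to 8.62. The season calls at MR were spread over these classes: of the 52 members that fell 20 were lower and 2 higher in 2012, of the 32 that rose 12 and 6, and of the other 16 there were 6 and 1. Among all genes the shares lower and higher were 19.8% and 20.5% of those that fell, 20.3% and 25.4% of those that rose, and 15.6% and 17.3% of the rest.

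**Figure D4:**
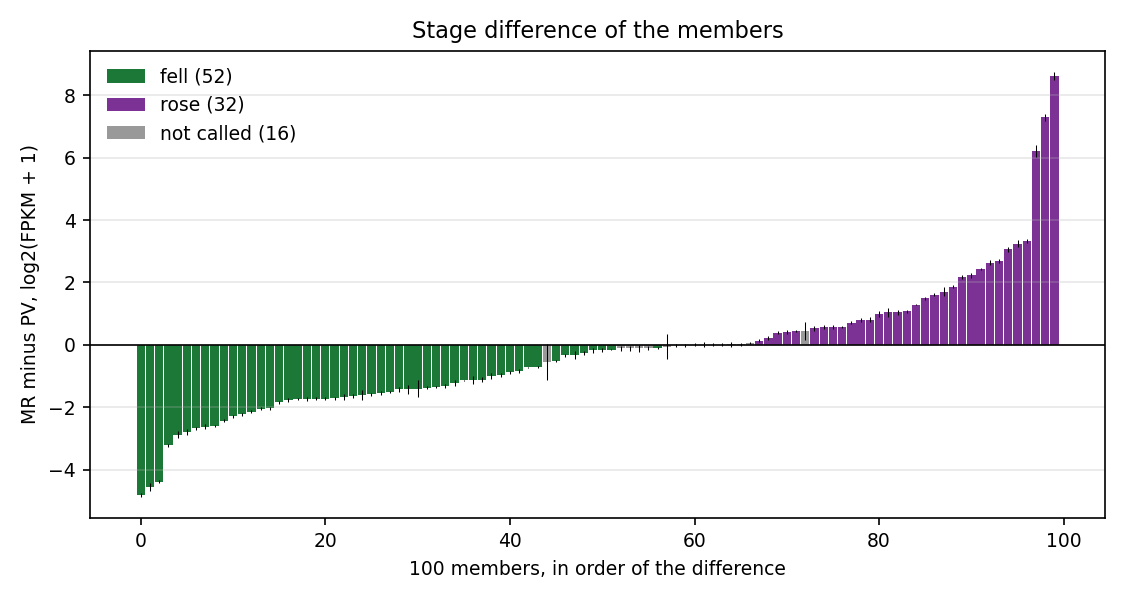
Difference between stages, MR minus PV on the log2(FPKM + 1) scale, for each of the 100 members in order, with bars for the limma estimate and lines for its standard error. Green bars mark the 52 members that fell, violet the 32 that rose and grey the 16 not called; 3 members rose and 3 fell by more than 4.

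The largest rise was that of VIT_06s0061g00550, from 0.704 to 70.8 FPKM in the 36 PV libraries (median 4.06) to 1232 to 4644 in the 36 MR libraries (median 2245). The stages did not overlap, and the difference was 8.62 (SE 0.12, limma adjusted p = 1.4e-50), higher in 12 of 12 matched pairs. At MR the season difference of this gene changed sign between groups, with means of 1833 and 3478 FPKM in CS from Bolgheri in 2011 and 2012 and 3659 and 2149 in CS from Riccione. VIT_02s0012g00500 rose from 0.124 to 15.7 FPKM (median 1.96) to 374 to 855 (median 542), a difference of 7.29 (SE 0.11, limma adjusted p = 2.2e-50) seen in 12 of 12 pairs. VIT_01s0146g00260, with the highest score free of zeros, was also in this class, at 969 ± 226 FPKM at MR in 2011 and 1037 ± 656 in 2012 (SD, n = 18), and its season difference at MR of -0.14 (SE 0.26) was not called (limma adjusted p = 0.72). The largest fall was that of the abundant VIT_10s0116g01780, from 446 to 3471 FPKM at PV (median 1593) to 10.5 to 176 at MR (median 44.2), a difference of -4.81 (SE 0.055, limma adjusted p = 3.4e-55) in 12 of 12 pairs. VIT_02s0154g00310 went from 7.29 to 299 FPKM (median 30.8) to at most 5.16 (median 0.433), a difference of -4.56 (SE 0.13, limma adjusted p = 6.2e-36) in 12 of 12 pairs; with a pseudocount of 5 this was -2.90.

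**Figure D5:**
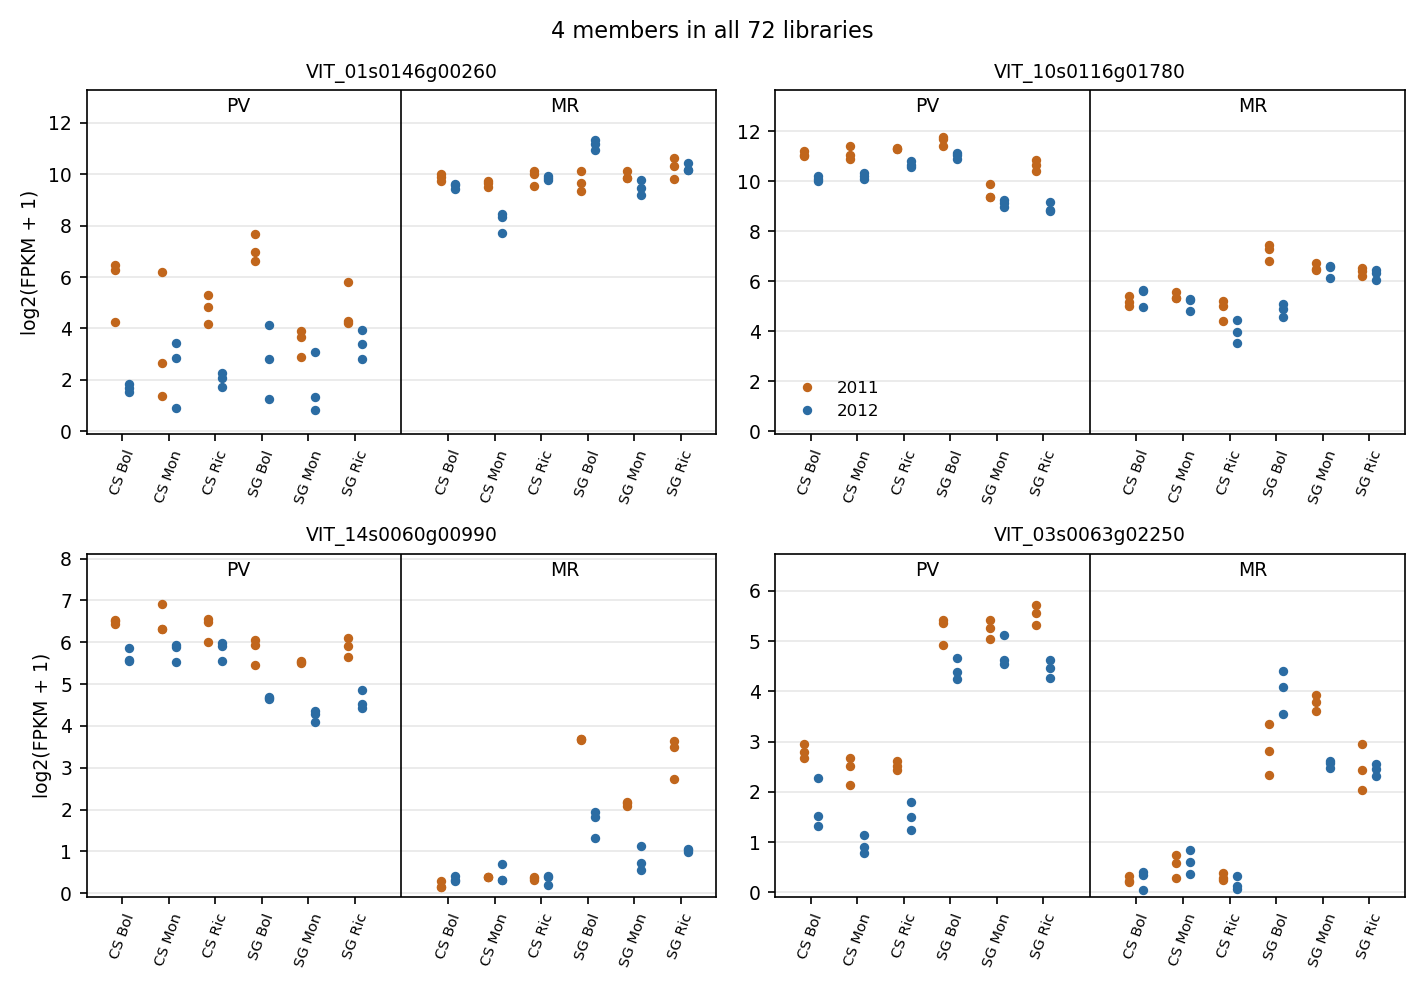
Level of 4 members in all 72 libraries as log2(FPKM + 1), at PV and MR, in CS and SG at Bolgheri (Bol), Montalcino (Mon) and Riccione (Ric), with 1 point per library. VIT_01s0146g00260 is at 0.794 to 205 FPKM at PV and above 209 at MR, VIT_10s0116g01780 falls with ripening, VIT_14s0060g00990 differs between seasons at MR in SG, and VIT_03s0063g02250 is higher in SG throughout.

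Cultivars differed in many members, as in many genes. At PV 48 members were higher in SG and 30 lower (limma, adjusted p under 0.05), against 39.2% and 34.8% of all genes tested; at MR 51 were higher and 25 lower, against 46.7% and 25.7%. Of the 13463 genes over the rule's minimum, 6867 were called higher in SG at MR and 3612 lower. After quantile normalization the members' MR counts were 47 and 28, against 35.4% and 36.5% of all genes tested. In the same direction at both stages were 30 members higher in SG and 13 lower, against 26.8% and 16.5% of genes, and 16 members, against 13.2% of genes, were called in opposite directions. Called differences of at least 2-fold were found in 17 members at PV and 18 at MR, against 8.32% and 7.51% of all genes tested. Those genes include some below the rule's minimum, where the log2(FPKM + 1) scale understates a difference, so nothing is read from these shares. The PV group values also chose the members, so their PV counts for cultivar are a description. VIT_03s0063g02250 had the largest difference in favour of SG at both stages. At PV it held 0.712 to 6.73 FPKM in CS (median 3.64, n = 18) and 18.0 to 52.0 in SG (median 30.5, n = 18), with no overlap and a difference of 2.95 (SE 0.086, limma adjusted p = 4.3e-35). At MR it stayed under 1 FPKM in every CS library and held 3.12 to 20.1 in SG, again with no overlap and a difference of 2.66 (SE 0.086, limma adjusted p = 6.7e-33), which became 4.35 with a pseudocount of 0.1 and 1.23 with 5. Both differences had the same sign in 6 of 6 pairs. VIT_00s0253g00080 was higher in SG at PV by 1.74 (SE 0.38, limma adjusted p = 5.9e-05, 6 of 6 pairs), and VIT_01s0011g05150 at MR by 2.63 (SE 0.41, limma adjusted p = 8.7e-08, 6 of 6 pairs). In both genes the cultivars overlapped. The former held 1.85 to 35.8 FPKM in CS and 11.1 to 164 in SG at PV, and the latter 0.0623 to 14.7 and 8.05 to 140 at MR.

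Lower in SG at PV were VIT_03s0063g02670, with 2.77 to 23.9 FPKM in CS and at most 4.24 in SG, and VIT_18s0001g10620, with 3.86 to 32.9 in CS and 0.554 to 5.40 in SG. Their ranges in CS and SG overlapped slightly. The differences were -2.22 (SE 0.063, limma adjusted p = 1.0e-35) and -1.89 (SE 0.14, limma adjusted p = 4.4e-18), each in 6 of 6 pairs; a pseudocount of 5 made them -1.16 and -1.12, and one of 0.1 made the former -3.30. At MR VIT_03s0038g03130 held 236 to 465 FPKM in CS (median 317) and 49.8 to 141 in SG (median 85.5), without overlap. Its difference was -1.88 (SE 0.16, limma adjusted p = 7.1e-16), in 6 of 6 pairs. At PV the gene was called in the opposite direction, higher in SG by 0.78 (SE 0.16, limma adjusted p = 1.4e-05). Its PV means in 2011 were 24.4 in CS and 22.6 in SG from Montalcino, and 26.7 in CS and 62.7 in SG from Bolgheri. VIT_14s0060g00310 was lower in SG at MR, with a difference of -1.14 (SE 0.092, limma adjusted p = 2.7e-16) in 6 of 6 pairs. It held 17.8 to 108 FPKM in CS and 6.98 to 50.5 in SG, so the cultivars overlapped.

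Growing areas also differed. At PV 73 members were called in limma's F-test over the 3 areas, against 62% of all genes tested, and the median range between area means was 0.41 over the members and 0.18 over all genes tested. The members were chosen on these PV group values, so nothing is read from the area counts at PV. Of the 73 members 49 were highest in Bolgheri, 12 in Montalcino and 12 in Riccione, beside 34.4%, 24.5% and 41.2% of all genes called. At MR 57 members were called, against 60.2% of genes tested and 9648 of the 13463 genes over the rule's minimum. Of these 57 members 37 were highest in Montalcino, 11 in Riccione and 9 in Bolgheri, beside 45.1%, 32.4% and 22.5% of all genes called. Whether the members' order of areas differed between the stages was not tested. With the group mean as the unit limma called 0 members for area at either stage, with 27 at PV and 12 at MR at an unadjusted p under 0.05, against 7.60% and 9.81% of all genes. The widest called range at PV was that of VIT_01s0011g05150, at 2.60 (limma adjusted p = 2.9e-05). Its medians were 39.3 FPKM in Bolgheri, 1.95 in Montalcino and 1.59 in Riccione (n = 12 each), and replicates ranged widely, for example 1.31, 13.9 and 146 FPKM in SG from Bolgheri in 2012. At MR the widest called range, 3.12 (limma adjusted p = 0.018), belonged to VIT_18s0001g01750, the gene with switching zeros. It became 2.00 with a pseudocount of 5 and 4.78 with 0.1, and the call was lost without replicate 1 of SG from Montalcino in 2011, where the range was 2.71.

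Some members lay next to each other in the ID order. There were 5 such pairs with consecutive gene numbers on a scaffold, which held 10 members and are named here because of this. Deviations from the group means over the 72 libraries correlated with Pearson's r of 0.90 between VIT_14s0068g00920 and VIT_14s0068g00930, 0.83 between VIT_11s0103g00370 and VIT_11s0103g00380, and 0.67 between VIT_18s0001g10610 and VIT_18s0001g10620. The other pairs were VIT_13s0156g00100 with VIT_13s0156g00110 at 0.64 and VIT_13s0156g00430 with VIT_13s0156g00440 at 0.42. Such values share libraries and depth, and where neighbours are near-identical copies the authors' counting could split reads between them, so they are a description. The closest pair moved together at PV: in CS from Montalcino in 2011 VIT_14s0068g00920 held 33.8, 32.2 and 106 FPKM and VIT_14s0068g00930 held 10.1, 8.88 and 36.1, with the same library high for both. VIT_14s0068g00920 had 32.2 to 290 FPKM at PV in 2011 and 5.48 to 97.0 in 2012, and VIT_14s0068g00930 had 8.88 to 93.7 and 2.53 to 52.6. At MR both were lower in 2012, by 0.47 (SE 0.12, limma adjusted p = 0.0016) and 0.39 (SE 0.11, limma adjusted p = 0.0044). Among 94 other genes over the minimum that neighbour a member, 10 (10.6%) were lower in 2012 in all 6 PV pairs, beside 7.13% of all genes over the minimum. The chromosome field of the ID was 18 for 13 members, the most of any value, beside 7.49% of all genes over the minimum.

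The same rule with the seasons exchanged took the 100 genes most evenly higher in 2012 at PV. At MR 81 of these were called higher in 2012 and 0 lower in limma, with a median difference of 0.55, beside 9 higher and 38 lower with a median of -0.14 in the members. Whether the 2 sets differ in how far the season difference carried over was not tested.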

How the data were processed

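The authors deposited 1 table of FPKM for 29971 gene IDs and 72 libraries, made per the labels' protocols from non-directional TruSeq libraries of berry pericarp RNA, so reads carry no strand. Tools in the submitters' processing notes are Cufflinks 2.1.1, TopHat2 2.0.9 and CASAVA 1.8.2. Genome build, annotation and tool options were not stated in the sources used here. FPKM is relative within a library, and absolute depth is unknown. Each column was mapped to its sample by title, and 0 columns were left unmapped.

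Values were taken as log2(FPKM + 1), so a change at a low level is understated. Genes with a mean of at least 1 FPKM in at least 1 group (20443) were fitted in limma 3.58.1 (R 4.3.3) with 1 mean for each of the 24 groups and eBayes with trend. Tests were two-sided moderated t or F tests with Benjamini-Hochberg adjustment over all 20443 genes and a threshold of 0.05, and the scripts were tested on simulated data. Season at PV, which chose the members, was not tested. Members, comparisons and alternatives were chosen with earlier results of these data known. Named genes are, per comparison, at most 2 called members with the largest difference each way and no listed 0 on the higher side, the highest scores without zeros at PV, the genes around the limit, and for area the widest called range.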

Additional observations from a re-analysis of the deposited data

Results flagged for a closer look

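In 2 of the members named for the season at mid-ripening (MR), the difference between 2012 and 2011 itself differed between the cultivars by limma's interaction test (Benjamini-Hochberg over 20443 genes). For VIT_14s0060g00990 it was 0.054 on the log2 scale in Cabernet Sauvignon and -1.86 in Sangiovese, a difference of -1.91 (SE 0.14, adjusted p = 5.4e-15). All 9 Sangiovese libraries of 2012 lay below all 9 of 2011, while the Cabernet Sauvignon libraries were near 0 in both seasons. For VIT_14s0060g00310 it was 0.49 in Cabernet Sauvignon and 1.08 in Sangiovese, a difference of 0.58 (SE 0.18, adjusted p = 0.012). The areas were unlike for this gene. In Cabernet Sauvignon and Sangiovese its season difference was 0.99 and 2.18 at Bolgheri, -0.80 and -0.11 at Montalcino, and 1.29 and 1.15 at Riccione. At Riccione it was thus not larger in Sangiovese. With the group mean as the unit no member (0) was called for this interaction in limma, and 6 members had an unadjusted p under 0.05. Groups of 3 libraries are too small for a check of outlying samples.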

How the results depend on the processing

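Which genes are members depends on the rule. Of the 100, 64 were kept with a minimum of 10 FPKM and 11 when ranked by the mean of the 6 differences; 73 to 88 were kept under the other alternatives. Leaving out 1 PV library kept 80 to 99; 36 were kept in every such case, and 60 other genes entered in at least 1. All 100 stayed lower in 2012 in all 6 pairs after median-of-ratios scaling or quantile normalization. With the group mean as the unit limma called 0 members for season either way, for area at PV, for area at MR and for both interactions; in Sangiovese it called 27 higher and 14 lower at PV and 13 lower at MR, against 20.7%, 18.6% and 12.5% of all genes tested. Requiring also a difference of at least 1, counts of members, each with the share of all genes tested, were 1 (0.611%) lower and 0 (0.455%) higher for season, 19 (6.57%) higher at MR than PV, 12 (4.14%) higher and 5 (4.18%) lower in Sangiovese at PV, and 13 (4.61%) higher and 5 (2.90%) lower at MR. They were 8 (1.72%) for area at PV, 4 (1.30%) for area at MR, 7 (1.42%) for cultivar by season and 19 (5.94%) for area by season. The genes tested include some below the rule's minimum, and at low levels this scale understates a difference. Quantile normalization gave 51 higher at MR than PV, against 49.8% of genes. No other count moved by over 1.5 times under the pseudocounts, filters, scalings, robust or within-stage fits tried, or with any library left out, where 34 to 41 members were lower and 9 to 11 higher in 2012 at MR, against 18.6% to 20.5% and 20.8% to 22.4% of genes. Of 954 recomputed values of named genes 0 reversed and 7 lost their call, 6 with the group mean as the unit. Single replicates could not be paired because the labels give no replicate numbers. Matched groups were paired only in the fit with the group mean as the unit. Depth is unknown, and low values are less precise in shallow libraries.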
